A study of Glycine max with 4 samples.

Results

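Runs of closely spaced binding sites were examined for the protein encoded by GLYMA.07G038400 in soybean embryos. A site was a peak of the first ChIP replicate, on a sequence named as a chromosome, that overlapped a peak of the second replicate by at least 1 bp. Neighbouring sites whose summits lay at most 2000 bp apart were chained, and every chain of 3 or more was kept as a run. Of 22252 such shared sites, 1872 (8.41%, 95% Wilson interval 8.06 to 8.78) fell into 569 runs. A further 4814 sites formed close pairs, and 15566 were single, with no other shared site within 2 kb. The positions of the peaks in both replicates chose the members, that is, the members were chosen by measured summit positions, so their closeness is a description and no test was made of it.

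The series holds 4 samples from cultivar Williams 82, a reference line of soybean, taken at the early maturation stage from seeds measuring 6 to 7 mm. In 2 ChIP samples, chromatin crosslinked with 1% formaldehyde was precipitated with an antibody to amino acids 188 to 202 of the protein. The other 2 samples are the matching inputs, total chromatin that no antibody selected. No genetic control without the protein is among them, so sites that the antibody recovers in another way cannot be told apart from bound ones. The labels call the replicates biological but do not say whether they came from separate plants, so the spread between them may be technical.

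At early maturation a soybean embryo passes from cell division to the build-up of storage protein and oil, and transcription factors direct that change. The authors named their peaks with the letters GRF5, and no label says what they stand for. GRF is the usual short form of growth-regulating factor, a family of plant transcription factors with a conserved DNA-binding domain (WRC) and another domain (QLQ) that binds coactivators of the GIF family. In Arabidopsis these factors are known for promoting cell proliferation in leaves and other organs, and many of them are held down by the microRNA miR396. In ChIP-seq a factor that binds at several places in one stretch of chromatin gives several summits, and plant promoters and enhancers often hold more than one binding site. Neither the genome sequence nor the genes of the authors' assembly were used here, so the runs are given by position only.

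Most runs were short. Runs of exactly 3 sites numbered 446 (78.4%, 74.8 to 81.6), and there were 92 runs of 4 and 26 runs of 5. The remaining 5 held 6, 6, 7, 8 and 9 sites. Runs of 4 or more were 123 in all and contained 534 of the 1872 sites.

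The depth behind each site was recovered from its fold enrichment and p-value. Run members rested on a median of 46 overlapping ChIP fragments in replicate 1 (range 14 to 251) and on 30 in replicate 2 (12 to 234). The local background, which the peak caller derives from the input, had a median of 4.37 fragments at run members in replicate 1 and 3.00 in replicate 2. Its highest values there were 10.6 and 7.46. Among single sites the medians were 4.40 and 2.98, and among close pairs they were 4.40 and 2.98 as well. The highest values were 93.3 and 47.3 at single sites and 65.1 and 54.7 in close pairs. A background above 20 fragments in either replicate was rare everywhere, at 5 of 22252 shared sites (0.0225%), so its count of 0 among the 1872 run members (upper limit of the 95% Wilson interval 0.205%) is no trait of the runs.

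The longest run showed how the members varied. It lay on chromosome 17 at 8630433 to 8640688, and its 9 summits spread over 9937 bp with spacings from 757 to 1910 bp. Folds in replicate 1 were, in order along the chromosome, 5.60, 17.96, 11.3, 5.71, 37.2, 25.9, 5.53, 12.02 and 7.34. In replicate 2 the same sites had 6.83, 15.6, 5.86, 4.26, 24.9, 28.4, 6.08, 6.78 and 4.20. The fifth and the sixth site, 757 bp apart, were the strongest in both replicates, but they exchanged the lead. The fifth had a mean fold of 31.06 ± 8.71 (SD, n = 2) and the sixth 27.1 ± 1.80, a difference smaller than the SD of the fifth. They rested on 200 fragments (95% exact Poisson interval 173 to 230) and 131 (110 to 155) in replicate 1, and on 123 (102 to 147) and 103 (84.1 to 125) in replicate 2. The second site, at 16.8 ± 1.70, was the only other member above 10-fold in both replicates. One more replicate 1 peak without a counterpart lay inside this run.

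The run of 8 sites, on chromosome 8 at 45698281 to 45705685, was built of weaker sites around 1 leading member. The folds in replicate 1 were 3.77, 8.06, 21.7, 5.24, 6.11, 5.45, 6.67 and 9.23. In replicate 2 they were 6.32, 4.38, 13.7, 5.19, 5.55, 5.20, 7.14 and 8.70. The third site led in both replicates, with 17.7 ± 5.69 (SD, n = 2), and no other member reached 10-fold in either. Its first site was the weakest of the run in replicate 1, whereas 4 other members were weaker than it in replicate 2.

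The run of 7 sites differed from it in having 2 members of nearly equal height. It lay on chromosome 6 at 7192430 to 7200755. The sixth site had folds of 21.5 and 19.8 in the 2 replicates, and the third site had 20.2 and 19.6. The last site followed with 10.7 and 14.3, and the other 4 members lay between 4.37 and 9.98. The third and the sixth site had means of 19.9 ± 0.376 and 20.6 ± 1.22 (SD, n = 2). Their difference was smaller than the SD of the sixth but larger than that of the third.

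Both runs of 6 sites had 1 member far above the rest, the fifth in each. On chromosome 13, at 21344534 to 21352557, this member had folds of 21.9 and 18.2, and the other 5 lay between 3.63 and 8.26. On chromosome 19, at 45428753 to 45435182, it had folds of 31.03 and 25.2. The fourth site of that run had 12.3 and 7.63, and the other 4 lay between 3.57 and 7.83.

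**Figure D1:**
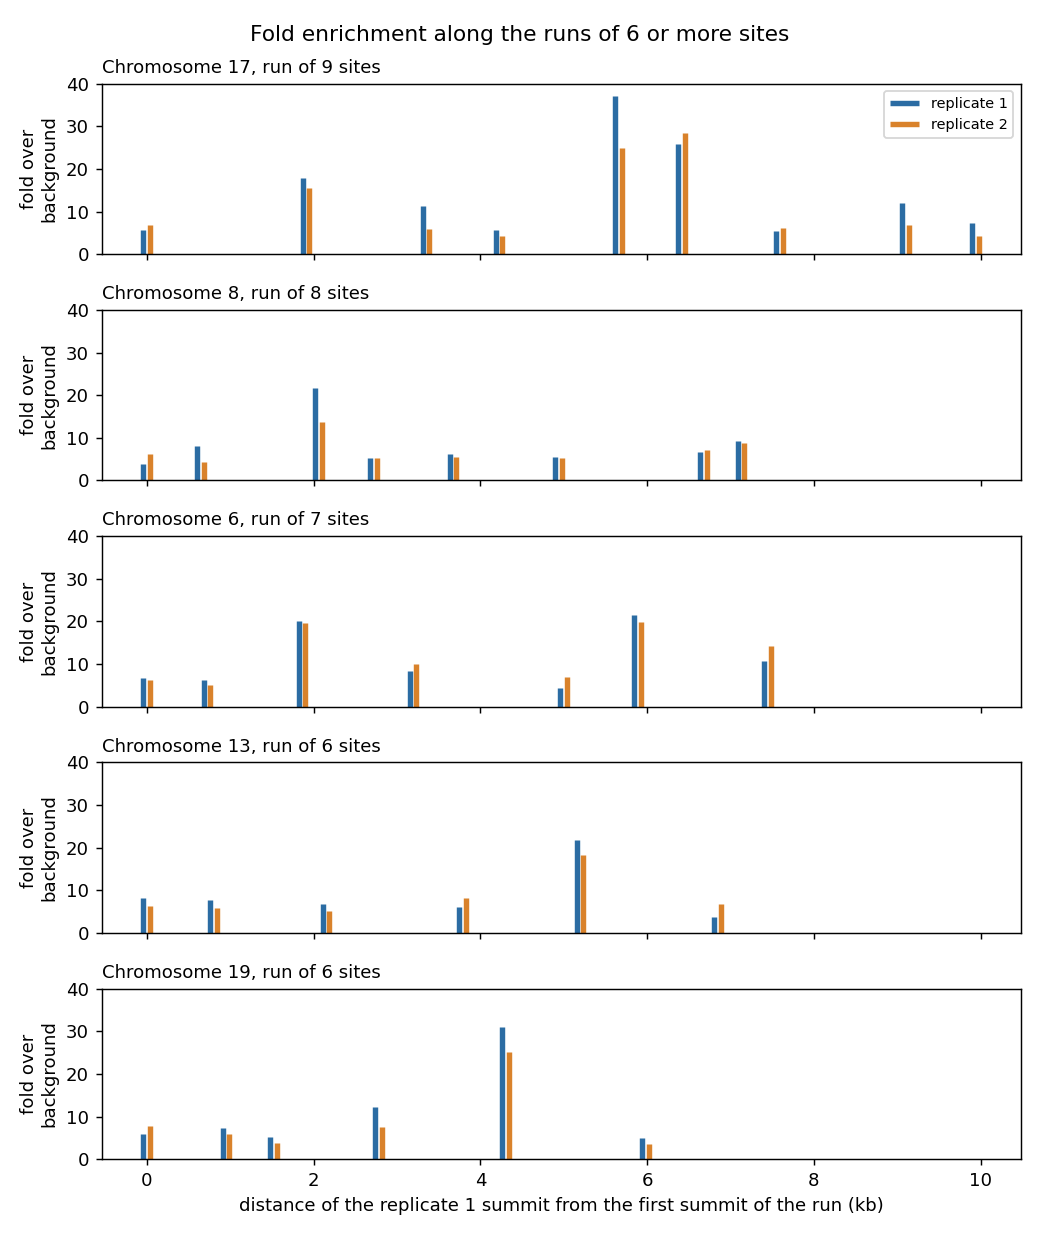
Fold enrichment over the peak caller's background (vertical axis, linear from 0) at each site of the 5 runs of 6 or more sites, against the distance of its replicate 1 summit from the first summit of the run in kb. Blue lines are replicate 1 and orange lines replicate 2, and the runs hold 1 to 3 members above 10-fold in both replicates among weaker ones.

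The 26 runs of 5 lay on 15 chromosomes. The lower-of-2 fold of their strongest members (the lower of the values in the 2 replicates) ranged from 7.35 to 48.8, with a median of 13.7. Over all 569 runs the strongest member had 11.8 as its median lower-of-2 fold, so the runs of 5 were not led by much higher sites. In the runs of 6 to 9 sites the strongest member had 13.7 to 25.9. A longer run has more members to take the highest from, so a higher leading value is partly built in. In 18 of the 26 runs of 5 the same member was strongest in both replicates.

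Within runs, summits lay a median of 1153 bp apart (quartiles 847.5 and 1543.5 bp, 1303 spacings), where the rule allowed up to 2000 bp. The closest neighbours were 336 bp apart in replicate 1, on chromosome 4 in the run at 7848293 to 7850487. Both overlapped 1 replicate 2 peak, so the second replicate did not resolve them, and its own smallest spacing was 383 bp. Spacings of up to 500 bp were rare, at 32 of 1303 (2.46%, 1.74 to 3.45), and 36.3% (33.7 to 38.9) lay between 501 and 1000 bp. The fullest class of 250 bp was 751 to 1000 bp, with 286 spacings (21.9%), and the share then decreased to 12.6% at 1751 to 2000 bp. Close pairs had a median spacing of 1187 bp (859 to 1546.5), and 33.03% of them (31.2 to 34.9) lay at 501 to 1000 bp. The difference between runs and pairs was not tested, because sites are not replicates.

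In replicate 2 the same runs had a median spacing of 1148 bp (841 to 1550.0, 1295 spacings). Only the replicate 1 summits were used for chaining, but every member had to overlap a replicate 2 peak. Similar spacings and small summit offsets are therefore partly built into the rule. Member summits lay a median of 29 bp apart between replicates (quartiles 13 and 55.3 bp), against 31 bp (14 to 57) at single sites. The offset between replicates was small next to the distance between neighbours. Peaks enter a run only as separate entries of the peak list, so their separation is given in advance. The smallest gap between the edges of neighbouring replicate 1 peaks was 52 bp and the median gap was 645 bp. Peaks covered a median of 51.01% of the stretch from the first to the last base of a run, with a range from 26.5 to 90.8%.

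Runs of 3 spanned a median of 2416.5 bp from first to last summit (quartiles 1966.75 and 2812 bp). Runs of 4 spanned 3476 bp and runs of 5 spanned 4738.5 bp, so the span grew by about 1 spacing with each site. Spacing within a run was only loosely even. In runs of 3 the larger spacing was a median of 1.46 times the smaller (quartiles 1.19 and 1.96). It was under 1.2 times the smaller in 120 of 446 (26.9%, 23.0 to 31.2) and over 2 times in 100 (22.4%, 18.8 to 26.5).

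**Figure D2:**
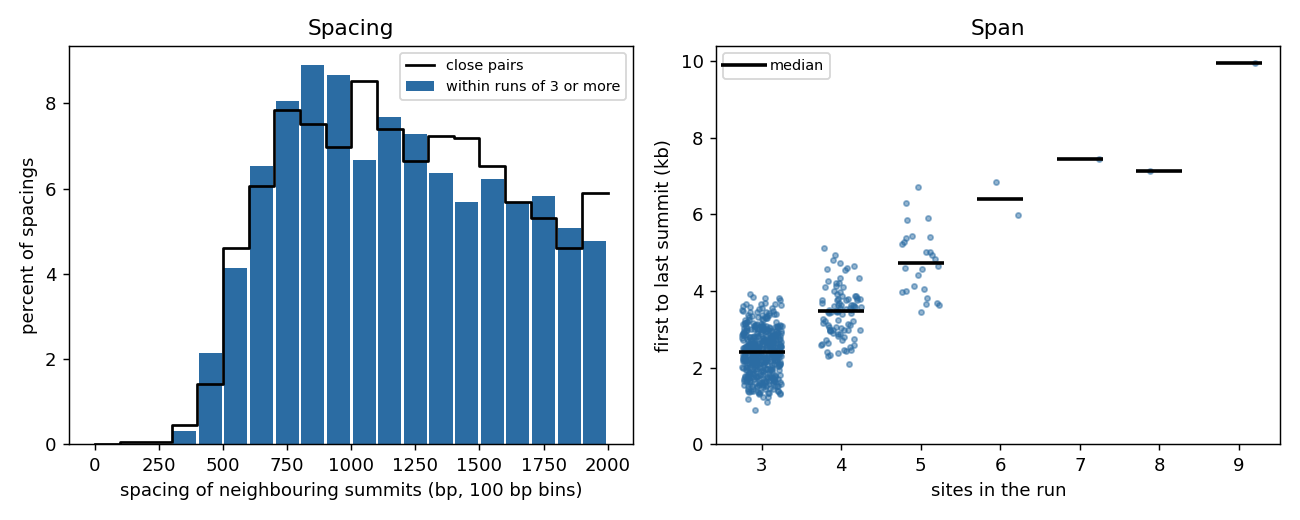
Left, percent of spacings between neighbouring replicate 1 summits in bins of 100 bp, as bars for runs of 3 or more (1303 spacings) and as a line for close pairs (2407 spacings). Right, distance from first to last summit in kb for each of the 569 runs (points, spread sideways for visibility) against the number of sites, with a black line at the median, which is 2416.5 bp for runs of 3.

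The 5 tightest runs each held 3 sites, and all but 1 of these sites stayed below 10-fold in at least 1 replicate. The smallest, on chromosome 9 at 42765776 to 42767213, placed 3 summits within 891 bp. Its folds were 4.24, 4.46 and 6.73 in replicate 1, while in replicate 2 the first 2 sites fell under a single peak of 5.06-fold and the third had 6.69. The second replicate therefore resolved 2 peaks there and not 3. On chromosome 13, at 20834716 to 20836141, the span was 1103 bp and both replicates had 3 peaks, with folds of 4.48, 4.71 and 8.93 in replicate 1 and 7.78, 7.78 and 8.70 in replicate 2.

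The other 3 had spans of 1186 to 1226 bp. On chromosome 2, at 298268 to 299853, the folds rose along the chromosome in both replicates, from 4.17 through 8.23 to 17.7 in replicate 1 and from 3.76 through 6.12 to 10.4 in replicate 2. On chromosome 8, at 1338131 to 1339728, they fell in both, from 10.7 through 7.93 to 4.46 and from 9.03 through 8.03 to 3.83. On chromosome 9, at 278585 to 280202, the third site led in replicate 1 with 8.56 and the first led in replicate 2 with 7.87. At the other end, the widest run of 3 spanned 3911 bp on chromosome 13, at 23118232 to 23122865, with spacings of 1956 and 1955 bp and its highest folds, 23.6 and 21.4, at the third site.

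Neighbours at very short distance were weaker and narrower. Sites with a neighbour of the same run within 500 bp were at a median of 5.13 in lower-of-2 fold (quartiles 4.32 and 6.70) and a median width of 355.5 bp. For spacings of 501 to 1000 bp these medians were 6.65 and 450 bp. They were 6.88 and 468.5 bp at 1001 to 1500 bp, and 6.81 and 485 bp at 1501 to 2000 bp. A site enters once for each neighbour. The width of a peak limits how near a separate neighbour can lie, and its part in this difference was not tested.

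The limit of 2000 bp left a few runs near its edge. The run with the widest accepted spacing, 1997 bp, lay on chromosome 17 at 2944774 to 2948941 and had lower-of-2 folds of 9.44, 4.42 and 9.89. The next, with 1995 bp, lay on chromosome 14 at 9506385 to 9510142 and had 12.3, 4.82 and 5.72. Just outside were triples whose wider spacing was 2002 bp, on chromosome 3 with summits from 36394158 to 36396907 and on chromosome 4 from 50731584 to 50734075. Their lower-of-2 folds were 6.09, 5.69 and 5.41, and 9.68, 3.65 and 3.74. Another shared site stood beyond the limit but within 3 kb of 120 of the 569 runs (21.1%, 17.9 to 24.6).

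Run members were on the whole of ordinary strength. Their median fold was 8.67 (quartiles 6.02 and 13.3) in replicate 1 and 7.27 (5.44 and 11.3) in replicate 2. Single sites had medians of 7.64 and 6.84, and close pairs 8.44 and 7.23. A fold of at least 10 in both replicates was reached by 512 of 1872 run members (27.4%, 25.4 to 29.4), where 22.5% of all shared sites did. Close pairs gave 25.8% (24.6 to 27.1) and single sites 20.9% (20.3 to 21.6). Above 20-fold in both replicates were 104 run members (5.56%, 4.61 to 6.69), against 4.07% of all shared sites. A −log10 q of at least 10 in both was reached by 69.8% (67.7 to 71.9), against 65.8% overall. These shares lay slightly above the background of all shared sites, of which the run members are a part, and no test was made over sites.

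The number of sites in a run made little difference to the level. The median lower-of-2 fold was 6.69 in runs of 3, 6.71 in runs of 4 and 6.80 in runs of 5 or more, against 6.66 in close pairs and 6.20 at single sites. The share above 10-fold in both was 27.1%, 29.1% and 25.9% in the 3 size classes, and the Wilson intervals of these shares overlap.

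**Figure D3:**
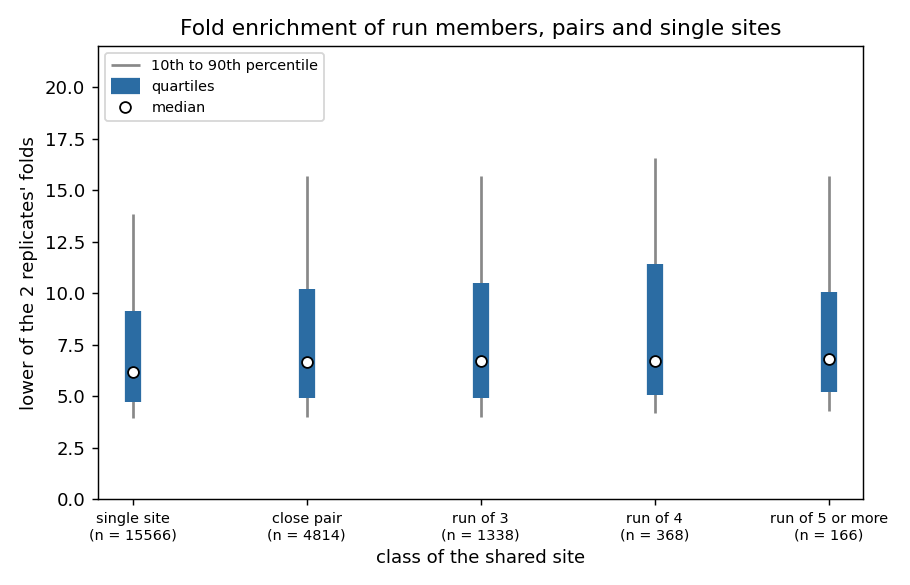
Lower-of-2 fold of shared sites by class, on a linear axis from 0, with the median (white point), the quartiles (blue bar) and the 10th to 90th percentile (grey line). The medians run from 6.20 at single sites to 6.80 in runs of 5 or more, and the quartile bars of all 5 classes overlap.

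Peak width followed the same pattern. Run members had a median width of 463 bp (361 to 591.25) in replicate 1 and 349 bp (271 to 451) in replicate 2, against 433 and 332 bp at single sites. At least 800 bp was reached by 144 run members in replicate 1 (7.69%, 6.57 to 8.99), where 6.98% of all shared sites did. Width and fold moved together: Spearman's rho across the 1872 members was 0.664 in replicate 1 and 0.678 in replicate 2, and 0.694 across single sites in replicate 1. Width and fold come from the same pileup, so this correlation across sites is a description.

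Folds of run members were recovered in the second replicate about as well as those of single sites. Spearman's rho between replicates was 0.771 across the run members and 0.724 across the 15566 single sites, and the SD of the log2 ratio was 0.48 in runs and 0.49 at single sites. The 2 folds differed by no more than 2 times at 94.8% of the run members (93.7 to 95.7), a share not given here for other sites. Taken as replicate 1 over replicate 2, the log2 ratio had a median of 0.19 in runs and 0.12 at single sites. Because fold adds 1 to pileup and background, and the background was lower in replicate 2, a ratio above 0 on this scale does not by itself show stronger enrichment in replicate 1.

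The folds of neighbours in a run were at most weakly related. Across 1295 neighbouring members that did not share a replicate 2 peak, Spearman's rho of their folds was 0.0599 in replicate 1 and 0.0815 in replicate 2. In close pairs it was 0.0824 and 0.0357. All sites of a replicate share 1 library, and such values near 0 are no finding.

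How far the strongest member stood above the others varied between runs. The ratio of the strongest to the second fold had a median of 1.46 (quartiles 1.18 and 1.92) in replicate 1 and of 1.41 (1.17 and 1.94) in replicate 2. The strongest exceeded the weakest by a median factor of 2.46 in replicate 1 and 2.25 in replicate 2, and by up to 13.5 and 10.8. A total of 214 runs (37.6%, 33.7 to 41.7) had no member of at least 10-fold in both replicates, 222 (39.02%) had 1, 110 (19.3%) had 2 and 23 (4.04%) had 3 or more.

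The order of folds within a run was not used to choose it, so the second replicate can be read as a repeat. The same member was strongest in both replicates in 427 of 569 runs (75.04%, 71.3 to 78.4), with 334 of 446 among runs of 3 (74.9%), 71 of 92 among runs of 4 (77.2%) and 22 of 31 among longer runs (70.97%, 53.4 to 83.9). In close pairs, where there are only 2 candidates, it was 1898 of 2407 (78.9%). The full order of all 3 members was the same in 228 of the 446 runs of 3 (51.1%, 46.5 to 55.7). A tie in replicate 2 was counted as different, and in 3 runs the top 2 members tied because they shared 1 replicate 2 peak.

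Agreement depended on the lead of the strongest member. Where it exceeded the second by less than 1.2 times in replicate 1, the same member was strongest in replicate 2 in 87 of 150 runs (58.0%, 49.9985 to 65.6). This share was 65.1% (57.04 to 72.3) at 1.2 to 1.5 times and 82.7% (75.8 to 87.9) at 1.5 to 2 times. From 2 times upwards it was 121 of 123. One of the 2 exceptions, on chromosome 11 at 7412227 to 7415217, was a tie at a shared replicate 2 peak. The other was on chromosome 6 and started at 5594205. The 2 sites that led in replicate 1 had a median ratio of 1.51 in replicate 2 (quartiles 1.07 and 2.14), a lead about as wide in the replicate that had not been used to pick them.

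**Figure D4:**
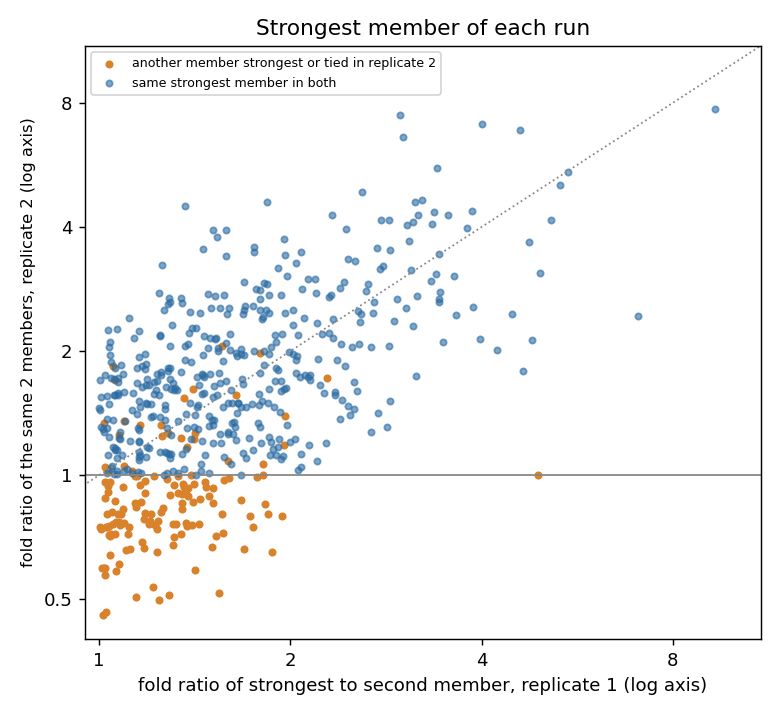
For each of the 569 runs, the ratio of the strongest to the second fold in replicate 1 (horizontal, log axis) against the ratio of the same 2 members in replicate 2 (vertical, log axis). Blue points are the 427 runs with the same strongest member in both replicates, orange points the others, the horizontal line marks equal folds in replicate 2 and the dotted line equal ratios.

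The strongest member held no fixed place. In the 446 runs of 3 it was the first by position in 171 (38.3%, 33.9 to 42.9), the middle one in 135 (30.3%, 26.2 to 34.7) and the last in 140 (31.4%, 27.3 to 35.8) in replicate 1. In replicate 2 these counts were 154, 145 and 147. In runs of 4 it was at an end in 46 of 92 in replicate 1 and in 45 of 92 in replicate 2. Position counts follow the chromosome and not the direction of a gene.

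The strongest member was usually also the widest, in 339 of 569 runs (59.6%, 55.5 to 63.5) in replicate 1. Its median width was 570 bp there, against 413 bp for the other members. Read in replicate 2, the members that were strongest in replicate 1 had a median width of 440 bp and a median fold of 11.6, and the others had 313 bp and 6.25.

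The run with the highest leading site was one of 5 sites on chromosome 4, at 3158964 to 3163345. Its first site had a fold of 48.8 in replicate 1 and 50.9 in replicate 2, resting on 232 and 185 fragments. The second site had 16.4 and 6.80, the third 6.98 and 6.68, the fourth 8.63 and 5.77, and the fifth 7.96 and 5.97. The first site thus stood at 49.9 ± 1.49 (SD, n = 2) above neighbours whose means were at most 11.6. The second differed most between replicates, with an SD of 6.80 on its mean of 11.6.

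On chromosome 19, at 45041775 to 45045651, the first of 3 sites reached 46.7 and 58.2, with the widest peak among its members at 1558 and 1361 bp. The second site had 7.74 and 5.41, and the third had 30.4 and 15.4. Here a weak site lay between 2 stronger ones in both replicates. The run on chromosome 2 at 45229856 to 45234235 had the same shape, with 17.9 and 12.98 at the first site, 6.75 and 9.59 at the second and 44.1 and 43.3 at the third.

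A pair of runs of 4 differed in how far the strongest site led. On chromosome 2 it exceeded the second by 3.54 times in replicate 1 and 4.27 times in replicate 2. On chromosome 17 these ratios were 2.87 and 1.51. On chromosome 2, at 15043286 to 15047502, folds rose from site to site in both replicates, through 5.57, 10.3, 14.8 and 52.4 in replicate 1 and 3.82, 7.56, 9.51 and 40.6 in replicate 2. On chromosome 17, at 39682334 to 39685649, the third site had 56.2 and 39.9, the highest replicate 1 fold of any run member, and the fourth had 19.6 and 26.4. The first 2 sites of that run had 8.52 and 11.7 in replicate 1 and 10.04 and 5.94 in replicate 2, an order that was not kept.

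The run on chromosome 16 at 636143 to 640468 showed a limit of the rule. The second and the third replicate 1 peak, with folds of 6.45 and 39.8, both overlapped 1 replicate 2 peak of 1976 bp with a fold of 38.3. The replicate 2 summit lay 31 bp from the summit of the third peak and 827 bp from that of the second. The second site had therefore no summit of its own in replicate 2, and its fold there belongs to its neighbour. The fourth site was separate in both replicates, at 25.5 and 18.7.

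Several runs joined 2 sites of similar and high enrichment. On chromosome 15, at 25231120 to 25234337, the first and second sites had folds of 35.3 and 37.1 in replicate 1 and of 32.98 and 38.5 in replicate 2, with summits 1167 bp apart. The third had 3.74 and 8.78. The means of the leading sites, 34.1 ± 1.62 and 37.8 ± 0.987 (SD, n = 2), differed by more than either SD, and no test was made with 2 replicates. On chromosome 7, at 3169729 to 3173558, the second site led in replicate 1 with 46.1 against 29.4 for the third, and the third led in replicate 2 with 36.6 against 35.6. The first site of that run was weak in both, at 5.97 and 5.27.

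Chromosome 18 held a run at 55244830 to 55247377 with folds of 35.5, 23.4 and 3.65 in replicate 1 and of 33.5, 24.5 and 5.59 in replicate 2, an order kept in both. On chromosome 15, at 6062151 to 6066546, the folds were 31.4, 7.13 and 20.8, and 27.1, 6.39 and 22.6, again with the weak site in the middle. Central leading sites were seen on chromosome 13, at 15461534 to 15466049, with 11.1, 36.04 and 24.7 and with 9.15, 37.2 and 19.02. The run on chromosome 14 at 4976265 to 4980472 also had its leading site in the centre, with 15.6, 36.3 and 8.29 in replicate 1 and 11.1, 47.6 and 5.07 in replicate 2.

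Runs in which every member was strong were few. Only 27.4% of run members reached 10-fold in both replicates, so a low share of such runs follows from that level. In 14 of 569 (2.46%, 1.47 to 4.09) all members had at least 10-fold enrichment in both replicates, and all but 1 of these held 3 sites. The highest lay on chromosome 5 at 33944578 to 33946923, where the folds rose along the chromosome in both replicates, through 22.9, 26.99 and 32.04 and through 17.7, 20.4 and 30.5. Its summits were 667 and 976 bp apart. The only one with 4 sites was at 38405037 to 38408986 on chromosome 2, where lower-of-2 folds ran from 11.9 to 18.8.

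The second replicate resolved nearly all runs as separate peaks. In 561 of 569 runs (98.6%, 97.3 to 99.3) each member overlapped a replicate 2 peak of its own. Judged by the summits of these overlapping replicate 2 peaks, 546 runs (95.96%, 94.01 to 97.3) held at least 3 peaks spaced by at most 2000 bp. Overlap with a replicate 2 peak was required of every member, so these high shares are partly built into the rule. In 5 runs the members overlapped fewer than 3 distinct replicate 2 peaks, and in 19 a replicate 2 spacing exceeded the limit. The opposite case, a member that overlapped several replicate 2 peaks, occurred at 55 sites (2.94%). The share over all shared sites is not given here, so this cannot be called a trait of the runs.

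Other peaks also stood inside some runs. Replicate 1 peaks without a counterpart lay between the first and last summit in 29 runs, 1 in each, with a median fold of 4.86 and a range of 2.96 to 7.95. Replicate 2 peaks without a counterpart lay inside 4 runs. The density of such peaks outside the runs is not given here, so neither count can be called high or low or a trait of the runs.

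All 20 chromosomes held runs, from 16 on chromosome 16 to 43 on chromosome 13. The mean density was 0.609 ± 0.161 runs per Mb (SD over chromosomes, n = 20). It was highest on chromosome 13 with 0.940, followed by chromosomes 11 and 8 with 0.838 each, and lowest on chromosome 18 with 0.345 and chromosome 15 with 0.367. The order largely followed the density of shared sites, which was 35.3 per Mb on chromosome 13 and 17.7 on chromosome 18. The share of a chromosome's shared sites that lay in runs varied less, with a mean of 8.35 ± 1.10% (SD, n = 20). Its extremes were 9.94% (8.28 to 11.9) on chromosome 19 and 6.13% (4.82 to 7.76) on chromosome 18. The intervals of these 2 do not overlap, but they take sites as independent, and sites enter a run together. The run members were 105 sites in 31 runs on chromosome 19 and 63 sites in 20 runs on chromosome 18. The intervals are therefore too narrow, and no difference between these chromosomes is concluded from them. Chromosomes 18 and 19 were picked here as the extremes of 20.

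**Figure D5:**
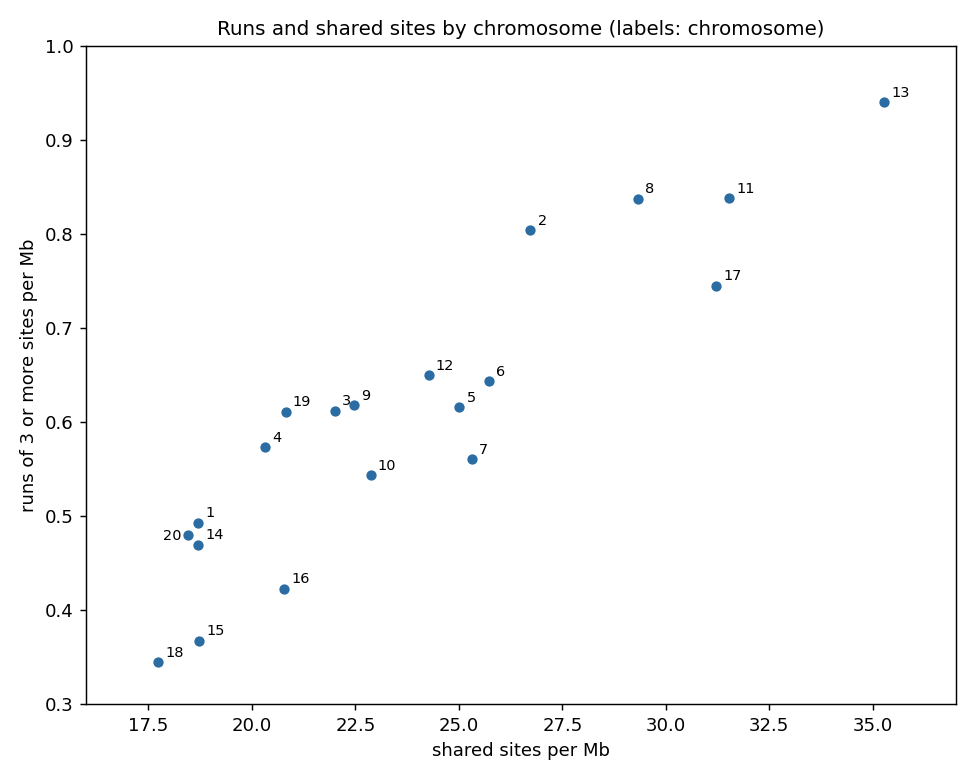
Runs of 3 or more sites per Mb against shared sites per Mb on each of the 20 chromosomes, with the chromosome number beside its point. Neither axis starts at 0, and chromosome 13 is at the upper right (0.940 runs and 35.3 sites per Mb) with chromosome 18 at the lower left (0.345 and 17.7).

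Most runs lay towards the chromosome ends, as the shared sites themselves did. The outer 25% at either end held 468 of 569 runs (82.2%, 78.9 to 85.2), and more runs than the central part on 20 of 20 chromosomes. By sites, 1547 of 1872 run members lay there (82.6%, 80.9 to 84.3), against 79.2% of all shared sites, 78.98% of close pairs and 78.8% of single sites. On chromosome 13, 58.1% of the runs and 45.6% of the shared sites lay in the outer parts. Within 500 kb on either side, run members had a median of 52 other shared sites, close pairs 48 and single sites 45. Members of the same run count towards these numbers.

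A total of 340 windows of 1 Mb held at least 1 run, out of 901 that held a shared site, and 193 of these held exactly 1. Only 16 windows held 4 or more, with 77 runs between them. The highest count was 7 runs, reached on chromosome 4 in the window of 3 to 4 Mb with 28 member sites. Chromosome 10 at 48 to 49 Mb and chromosome 14 at 5 to 6 Mb also had 7 runs, with 21 sites each. Neighbouring runs on a chromosome lay a median of 577685 bp apart, and 14 of 549 such intervals were at most 10 kb. The closest were 2 runs of 3 on chromosome 4, whose facing summits at 7850204 and 7852540 were 2336 bp apart.

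Runs also occurred where few other sites were found. A median of at most 10 other shared sites within 500 kb of their members was seen in 20 runs. Among the sparsest were a run on chromosome 10 at 35038738 to 35041894 and one on chromosome 18 at 31091026 to 31093103, both with 3 such sites, including the other members of the run. Their strongest members had lower-of-2 folds of 11.6 and 11.1. The run on chromosome 15 with 2 sites above 30-fold, described above at 25231120 to 25234337, had only 5. These runs were chosen after their values were seen.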

How the data were processed

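The files analysed are 2 peak lists, 1 per ChIP replicate. Per the submitters' processing notes, the tools were Bowtie 0.12.7, a read aligner, and MACS2, a peak caller. Not given in the sources used here are assembly and MACS2 version. The deposited fold is a ratio of ChIP to background at the summit. The authors deposited significance as −log10 of p and of q, a score per peak, which was not used, and the summit offset. Where several replicate 2 peaks overlapped a site, the one with the highest fold was taken. Whole pileups and Poisson backgrounds were recovered from (pileup + 1)/(background + 1) = fold and the p-value, with pileups within 0.0721% (replicate 1) and 0.581% (replicate 2) of a whole number. The peaks without counterpart are the remainder of 30908 replicate 1 and 25350 replicate 2 peaks on chromosomes. Recovery, overlap and chaining were tested on simulated data. Wilson and exact Poisson intervals (95%) cover counting error only. The Wilson intervals take sites or runs as independent, which the sites of 1 run are not. The labels name no molecular identifiers, so the Poisson intervals may leave out spread from copied fragments. Coordinates are 1-based, and chromosome lengths are ends of last peaks.

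Members were chosen with earlier results of these data known. The named runs are all of 6 or more sites, the 10 with the highest leading lower-of-2 fold, the 5 with the highest median, the 5 of smallest span, the widest run of 3 and those at the spacing limit. Ratio and spacing classes and the other runs given by position were chosen after their values were seen. No p-value was computed, because the rule used both replicates' positions and sites are not replicates. The alternatives changed spacing limit, overlap, threshold, pairing and replicate. The software was Python 3.11.15 with numpy 2.4.6, scipy 1.17.1, pandas 2.3.3 and matplotlib 3.10.9.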

Additional observations from a re-analysis of the deposited data

Results flagged for a closer look

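Unplaced scaffolds, which the rule leaves out, held 3 runs of 3 sites among their 134 shared sites, and this drew attention as a signal in data outside the main measurement. All 9 of these sites lay on 1 scaffold. Their lower-of-2 folds ranged from 4.45 to 33.9 with a median of 9.79, and the spans were 2218 to 2796 bp.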

How the results depend on the processing

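The rule and its limit of 2000 bp fix most of these values. A spacing limit of 1000 bp gave 104 runs with 317 sites (1.42% of the shared sites), a spacing of 780 bp and a span of 1560 bp (medians, as below), a ratio of strongest to second member of 1.42 and the same strongest member in both replicates in 80.8%. A limit of 1500 bp gave 308 runs, 998 sites (4.48%), a spacing of 971 bp and a span of 2104 bp. A limit of 3000 bp gave 1006 runs, 3450 sites (15.5%), a spacing of 1463 bp and a span of 3566.5 bp. These changes follow from the limit itself. With a −log10 q of at least 10 there were 225 runs and 718 sites (4.91%), with a spacing of 1168 bp, a span of 2574 bp, a ratio of 1.41 and 40.9% of members at 10-fold in both replicates; fewer and stronger peaks enter by construction. At a −log10 q of at least 5 the share of sites in runs was 8.01%, the spacing 1164.5 bp and the span 2608.5 bp. Reciprocal overlap of 50% gave 7.06%, 1147 bp and 2572 bp, with 29.7% of members at 10-fold. Summits within 100 bp gave 7.33% and 1149 bp. The cause of these smaller changes was not tested.

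Chaining of replicate 2 peaks at their own summits gave 10.5% of sites in runs, a spacing of 1050.5 bp, a span of 2434 bp, a width of 346 bp and the same strongest member in 59.5% of 721 runs. In 207 of these runs several members shared a replicate 1 peak, and in 133 the top 2 members had the same replicate 1 fold and were counted as different. With all peaks of 1 replicate and none left out for lack of a counterpart, runs numbered 842 to 1193 and their sites 2824 to 4063 (11.1% to 13.1%). The spacing was 1059 to 1119 bp, the span 2447.5 to 2565 bp, the width 335 to 408 bp and the ratio 1.45 to 1.51. The share at 10-fold was 28.2% to 30.3%, but here it counts a fold of at least 10 in 1 replicate only. It is therefore not the same measure as the share in both replicates, although it is counted among the recomputed values below. The share of runs in the outer parts stayed between 80.8% and 83.2% in all 11 alternatives. Of 108 recomputed values, 58 moved by less than the replicate spread, the counting interval or, for counts, 1.5 times. With 1 replicate no common strongest member can be given. Depth limits the weakest members, which rest on 12 to 14 fragments. No paired analysis was possible because no input values per site are at hand beyond what the peak caller used, and no test was run.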
